A study of Mus musculus with 12 samples.

Results

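The genes described here are 9 genes that mark or steer mouse monocytes. They were chosen by name from knowledge of these cells, with earlier results of these data known. All 9 were followed through all 12 libraries of the table, which lists 55421 genes in all. Ly6c2, F13a1, Fn1 and Ms4a6c are high in classical monocytes, Cd14 and Ctss are expressed in both monocyte types, Nr4a1 is the defining factor of nonclassical monocytes, and Klf4 and Irf4 are transcription factors that act in the monocyte lineage and its descendants. RNA came from flow-sorted cells labelled as endothelial cells of the bone marrow, 1 library per mouse, in 4 groups of 3 mice, all 20 weeks old and carrying the replicate numbers 2, 3 and 4. Controls were naive C57BL/6J mice. Hypertension mice were C57BL/6J given angiotensin II, which constricts arteries, continuously from an implanted minipump. Atherosclerosis mice were of the strain Apoe(tm1Unc), an Apoe knockout (Apoe-/-), and ate a western diet, so that genotype and diet cannot be told apart. MI mice were C57BL/6J after permanent ligation of a coronary artery, at 2 days by the labels, whereas the text of the study gives a later day. The naive controls had neither pump nor surgery, and the same 3 controls served every disease group.

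Monocytes arise in the bone marrow from granulocyte-monocyte progenitors. Classical monocytes carry much Ly6C on their surface, leave the marrow through CCR2 and enter inflamed tissue, while nonclassical monocytes carry little Ly6C, depend on NR4A1 and patrol the inner wall of blood vessels. Classical cells can turn into nonclassical ones, and blood monocyte numbers are known to go up after infarction and with high cholesterol.

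All 9 genes matched a single Ensembl ID, and all passed the filter on low counts, as did 15999 genes in total. Libraries held between 17007088 and 25136936 counts. The sort kept CD31hi SCA-1+ cells without TER-119, CD41 or CD45, after depletion of cells carrying CD11b, CD11c or Ly6G, a gate that would remove monocytes. In the libraries, however, the 21 endothelial markers summed to only 195 to 348 CPM (each gene's counts relative to the library total, scaled by TMM, a factor that evens out composition between libraries), with Cdh5 at a mean of 3.03 and Pecam1 at 21.6 CPM, although none of the 21 was at 0 in any library. By comparison, 15 neutrophil markers summed to between 34500 and 99900 CPM. Atherosclerosis replicate 2 and MI replicate 2 stood apart from the rest, with mean correlations to the other libraries of 0.96 and 0.966 against 0.97 to 0.981 for the others, and held respectively the lowest and the highest neutrophil sum. In bulk RNA, fewer cells of a type and less RNA per cell cannot be told apart.

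Per kilobase of exon, Ctss, which encodes the lysosomal protease cathepsin S, was the highest of the 9 genes, with a mean level of 184 CPM per kb over 12 libraries, rank 266 of 15992 genes with a length. Ly6c2, the gene of the Ly6C surface antigen, followed at 101 CPM per kb. Ctss exceeded Ly6c2 in 12 of 12 libraries. Next came Cd14, the co-receptor for bacterial lipopolysaccharide, at 81 CPM per kb, F13a1, the catalytic subunit of coagulation factor XIII, at 68.1 CPM per kb, and Ms4a6c, a four-span membrane protein of the MS4A family, at 63.1 CPM per kb. These neighbours were close: Ly6c2 lay above Cd14 in 9 of 12 libraries, Cd14 above F13a1 in 10, and F13a1 above Ms4a6c in only 5. Nr4a1 had a level of 43 CPM per kb, Klf4 19.9 CPM per kb and Fn1, which encodes the matrix protein fibronectin, 18.2 CPM per kb, and Klf4 and Fn1 exchanged order between libraries, with Klf4 above Fn1 in 7 of 12. Irf4 was by far the lowest, at 3.14 CPM per kb and rank 8267, with between 110 and 684 counts per library. The deepest of the 9 in raw counts was F13a1, with between 5892 and 13736 counts per library.

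On GRCm38, Ly6c2 lies at chr15:75108158-75111970 on the minus strand and Ctss at chr3:95526786-95556403 on the plus strand. Ms4a6c is at chr19:11469366-11482192, plus strand, and Irf4 at chr13:30749226-30766976, plus strand. F13a1 is at chr13:36867178-37050244, Fn1 at chr1:71585520-71653200 and Klf4 at chr4:55527143-55532466, all on the minus strand, and Nr4a1 is at chr15:101254269-101274795 on the plus strand. Ly6c2 has a near-identical neighbour, Ly6c1, which held 21 to 154 counts, 0.528 to 2.27% of the counts on both genes, and reads that fit both could not be assigned. The lncRNA BE692007 overlaps Ms4a6c on the other strand and held 196 to 343 counts, against 1748 to 3616 on Ms4a6c. Antisense genes at F13a1 held at most 37 counts, Apol7d at Fn1 at most 25, and a pseudogene inside Ctss at most 112. Which strand setting the counts were taken with was not given in the sources used here.

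Promoter windows from RefSeq (GRCm38.p6) were found for 7 of the 9 genes. The 250 bases before the start, 5′ to 3′ on the gene's strand, are shown for the 4 genes whose libraries did not overlap those of controls in some disease group: Ly6c2 (chr15:75111972-75112221, minus strand, the farther upstream of its 2 starts), Ctss (chr3:95526536-95526785), Ms4a6c (chr19:11469118-11469367) and Irf4 (chr13:30748983-30749232). Capitals mark matches, on either strand, to any of 7 motifs: PU.1 (GAGGAAG), C/EBP (TTNNGCAAT), IRF (GAAA, any 2 bases, GAAA), AP-1 (TGANTCA), CRE (TGACGTCA), the GC box, spelled GGGCGG, and a match to the core promoter element named the TATA box, spelled TATAAA.
Ly6c2: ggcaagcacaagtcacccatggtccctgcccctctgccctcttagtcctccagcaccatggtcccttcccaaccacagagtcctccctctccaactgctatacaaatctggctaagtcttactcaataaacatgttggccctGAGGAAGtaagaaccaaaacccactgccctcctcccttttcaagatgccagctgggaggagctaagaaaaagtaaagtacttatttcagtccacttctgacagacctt
Ctss: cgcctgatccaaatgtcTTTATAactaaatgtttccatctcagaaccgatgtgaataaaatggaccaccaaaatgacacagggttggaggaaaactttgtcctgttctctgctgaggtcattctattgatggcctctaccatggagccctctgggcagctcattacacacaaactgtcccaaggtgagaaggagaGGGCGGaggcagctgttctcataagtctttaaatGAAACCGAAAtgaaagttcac
Ms4a6c: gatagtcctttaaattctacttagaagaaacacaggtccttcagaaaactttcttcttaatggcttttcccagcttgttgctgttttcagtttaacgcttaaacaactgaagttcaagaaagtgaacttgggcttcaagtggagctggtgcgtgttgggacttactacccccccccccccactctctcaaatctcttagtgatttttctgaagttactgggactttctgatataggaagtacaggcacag
Irf4: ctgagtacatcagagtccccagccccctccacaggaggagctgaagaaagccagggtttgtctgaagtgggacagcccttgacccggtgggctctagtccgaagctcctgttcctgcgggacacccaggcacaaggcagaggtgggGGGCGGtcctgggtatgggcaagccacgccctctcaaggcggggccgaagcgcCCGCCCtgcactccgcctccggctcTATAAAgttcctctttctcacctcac
Ly6c2 held a PU.1 match 108 bases before its start, a motif found in 10.6% of all 32851 promoters, and the window of its nearer start shared that match and held a further one 8 bases before that start. Ctss held an IRF match 21 bases before the start, found in 2.98% of promoters, a GC box, and a TATA match on the other strand. Irf4 held a TATA match 26 bases before the start, found in 12.4% of promoters, and 2 GC boxes, a motif in 32.7% of promoters. No motif of the 7 matched in the Ms4a6c window. Of the windows not printed, Nr4a1 and Klf4 were rich in G and C, at 74.4% and 74%, with 3 and 4 GC box matches. A match of letters describes the sequence and does not show that a factor binds there.

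**Figure D1:**
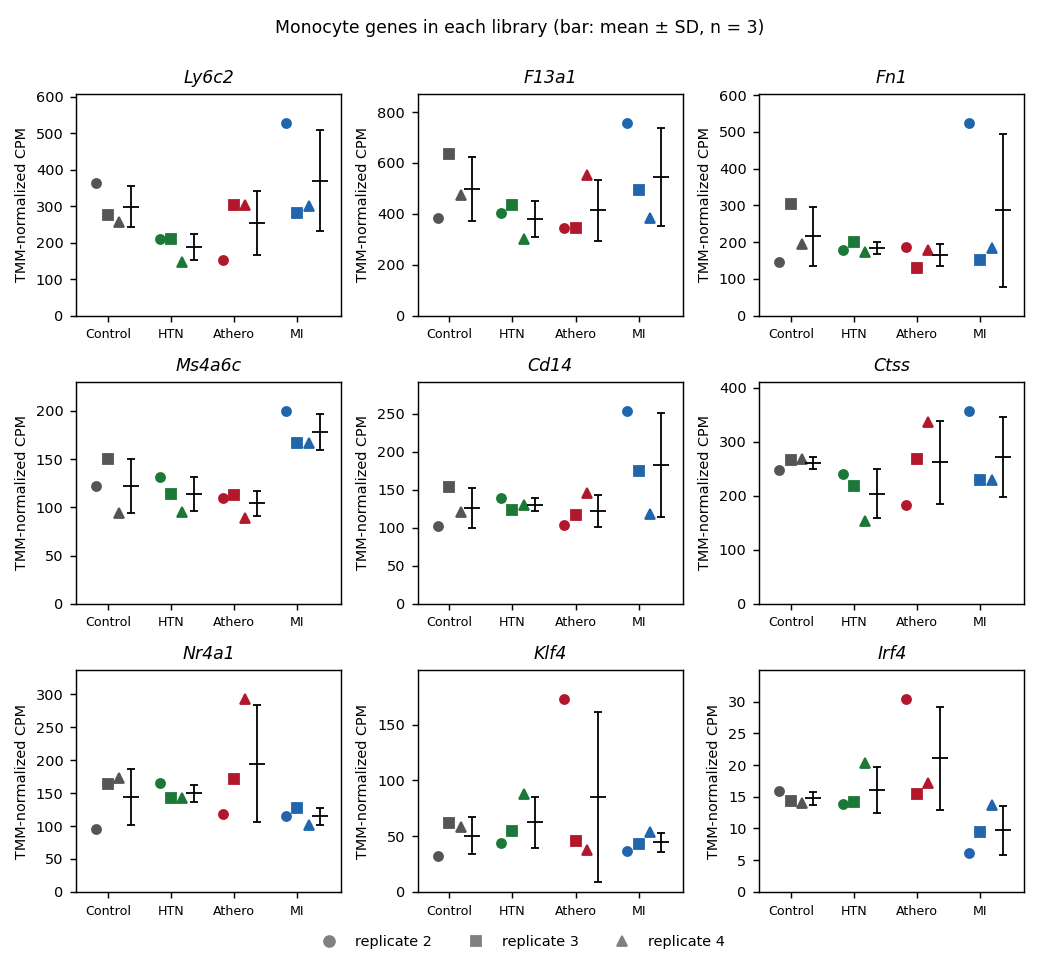
Normalized level (CPM, vertical axes from 0) of each of the 9 monocyte genes in each of the 12 libraries, by group, with the replicate number as the symbol and the mean ± SD of 3 mice beside the points. Ms4a6c in MI lies above all controls, Ly6c2 in hypertension below them, and single libraries set the high points of Klf4 (atherosclerosis replicate 2) and Fn1 (MI replicate 2).

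Among the genes of classical monocytes, Ly6c2 had levels of 363, 276 and 257 CPM in control replicates 2, 3 and 4, and of 209, 209 and 147 CPM in hypertension. It had 153, 304 and 304 CPM in atherosclerosis and 529, 281 and 301 CPM in MI. Every hypertension library lay below every control, while the other disease groups overlapped controls, atherosclerosis with 1 low library and MI with 1 high one.

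Ms4a6c had its highest levels in MI. It had 122, 150 and 94.2 CPM in controls, 131, 114 and 95.4 CPM in hypertension, 110, 113 and 89 CPM in atherosclerosis and 200, 167 and 167 CPM in MI. All 3 MI libraries were above all 9 others, with an SD on the log2 scale of only 0.15 within MI.

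F13a1, which crosslinks fibrin and is a long-used marker of classical monocytes and some macrophages, had 385, 634 and 475 CPM in controls and 404, 433 and 299 CPM in hypertension. In atherosclerosis it had 344, 346 and 552 CPM, and in MI 758, 492 and 383 CPM. The controls alone spanned 1.65-fold, and all groups overlapped. Fn1 had between 130 and 305 CPM in 11 libraries and 525 CPM in MI replicate 2, a spread of 3.51-fold within the MI group. The other MI libraries, at 150 and 184 CPM, sat within the range of controls.

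Of the genes shared by both monocyte types, Cd14 had 102, 154 and 121 CPM in controls and 254, 175 and 118 CPM in MI. The 3 libraries of hypertension, at 139, 123 and 130 CPM, and those of atherosclerosis, at 104, 117 and 146 CPM, lay within the controls' range. Ctss was the steadiest gene in controls, with 247, 266 and 267 CPM, an SD of 0.063 on the log2 scale. Its levels were 240, 218 and 154 CPM in hypertension, all below controls, 182, 267 and 336 CPM in atherosclerosis, and 357, 229 and 229 CPM in MI. Atherosclerosis and MI spread to both sides of the controls.

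Nr4a1, an orphan nuclear receptor that is both an immediate early gene and the factor nonclassical monocytes need, had 94.9, 164 and 173 CPM in controls and 165, 142 and 143 CPM in hypertension. It spread widest in atherosclerosis, at 119, 172 and 293 CPM, and was tight in MI, at 116, 127 and 101 CPM. The MI libraries were all below those of hypertension but overlapped controls.

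Klf4, a zinc finger factor required to make monocytes and also active in endothelium, had 31.9, 61.8 and 58 CPM in controls, 43.8, 54.9 and 88.2 CPM in hypertension and 36.3, 43.4 and 53.6 CPM in MI. In atherosclerosis 1 library had 173 CPM and the others 45.3 and 37.6 CPM, a spread of 4.61-fold in the group. Irf4, a factor of dendritic cells, B cells, plasma cells and alternatively activated macrophages, had 15.9, 14.3 and 14 CPM in controls, 13.9, 14.1 and 20.3 CPM in hypertension and 30.4, 15.5 and 17.2 CPM in atherosclerosis. In MI it had 6.07, 9.37 and 13.7 CPM, below every library of the other groups.

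As a measure of spread within groups, the median SD of log2 CPM was 0.34 over the 9 genes and 0.21 over all tested genes in controls, 0.28 and 0.21 in hypertension, 0.45 and 0.36 in atherosclerosis, and 0.5 and 0.26 in MI.

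To ask whether monocyte genes differed in hypertension, the 12 libraries were fitted together with edgeR's quasi-likelihood test, and p values were adjusted by Benjamini-Hochberg over 15999 genes, with 0.05 as the threshold. With 3 mice per group, p values rest on the spread between mice, estimated from all 4 groups together and shared in part across genes. The largest difference was in Ly6c2, whose mean level was 188 ± 35.7 CPM (SD, n = 3) in hypertension and 299 ± 56.5 CPM in controls. Its log2 fold change was -0.67 (SE 0.30, 95% interval -1.31 to -0.03), and leaving out single libraries moved it between -0.76 and -0.50. Ctss followed F13a1 in size, with log2 fold changes of -0.35 (SE 0.24) and -0.39 (SE 0.28), which were -0.18 without hypertension replicate 4 and -0.18 without control replicate 3. Of the 9 genes, 0 passed the threshold, as did 0% of all genes tested, and adjusted p ran from 0.951 to 0.984 in the quasi-likelihood test. Without adjustment, 1 gene, Ly6c2, had p under 0.05 in edgeR (0.0427), against 3.71% of all genes, and neither the likelihood-ratio test nor DESeq2 called any of the 9. Ly6c2 and Ctss were lower than controls without overlap, against 7.81% of all genes. For the 9 genes the median log2 fold change was -0.10, beside -0.013 over all genes, with 4 higher and 5 lower. The signs of Fn1, Ms4a6c, Cd14, Nr4a1, Klf4 and Irf4 each turned when some single library was left out. Fn1 went from -0.23 to 0.10 without control replicate 3, and Klf4 from 0.30 to -0.03 without hypertension replicate 4. Ly6c2, F13a1 and Ctss stayed below 0.

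In atherosclerosis, the 3 transcription factor genes had the largest log2 fold changes, with Klf4 at 0.76 (SE 0.49), Irf4 at 0.51 (SE 0.30) and Nr4a1 at 0.43 (SE 0.29), while the classical genes Ly6c2, F13a1, Fn1 and Ms4a6c were between -0.39 and -0.23. None of the 9 passed the threshold, against 0.144% of all genes (23 genes), with adjusted p between 0.866 and 0.998 in the quasi-likelihood test, and 0 had an unadjusted p under 0.05, against 5.97% of all genes. The likelihood-ratio test and DESeq2 also called 0. No gene of the 9 was free of overlap with controls, against 9.51% of all genes. The median log2 fold change of the 9 was -0.04, beside 0.012 over all genes. The Klf4 value rested on replicate 2: without that library it was -0.28. The Nr4a1 value rested on replicate 4, and was 0.02 without it. Irf4 was 0.16 without replicate 2. The lower values of the classical genes also depended on single libraries, since Ly6c2 was 0.03 without atherosclerosis replicate 2, and F13a1, Fn1 and Ms4a6c were each -0.06 without control replicate 3.

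In MI, the membrane protein gene Ms4a6c and Cd14 had the largest positive differences and Irf4 the largest negative one. Ms4a6c had a mean of 178 ± 19 CPM (SD, n = 3) against 122 ± 28 CPM in controls, a log2 fold change of 0.54 (SE 0.19, 95% interval 0.13 to 0.95), rank 109 of 15999 genes by p. Its value lay between 0.39 and 0.72 when single libraries were left out. Cd14 had a log2 fold change of 0.54 (SE 0.25, 95% interval 0.0035 to 1.07) with overlapping groups, and Irf4 one of -0.60 (SE 0.30, 95% interval -1.26 to 0.05) with all MI libraries below controls. The Irf4 value was -0.36 without MI replicate 2 and -0.94 without MI replicate 4. None of the 9 genes passed the threshold, as did 0% of all genes, and every adjusted p was 1 in the quasi-likelihood test. Without adjustment, 2 genes had p under 0.05 in edgeR, Ms4a6c at 0.0132 and Cd14 at 0.0487, against 2.8% of all genes, and the likelihood-ratio test and DESeq2 called 0 of the 9. Without overlap, 1 gene was higher (4.27% of all genes) and 1 lower (4.59%). Of the 9 log2 fold changes 6 were above 0, with a median of 0.13 beside 0.00022 over all genes. MI replicate 2 set the sign of 4 of them: without it Ly6c2 went from 0.31 to -0.04, F13a1 from 0.13 to -0.19, Fn1 from 0.41 to -0.37 and Ctss from 0.06 to -0.18, and Cd14 went from 0.54 to 0.22.

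**Figure D2:**
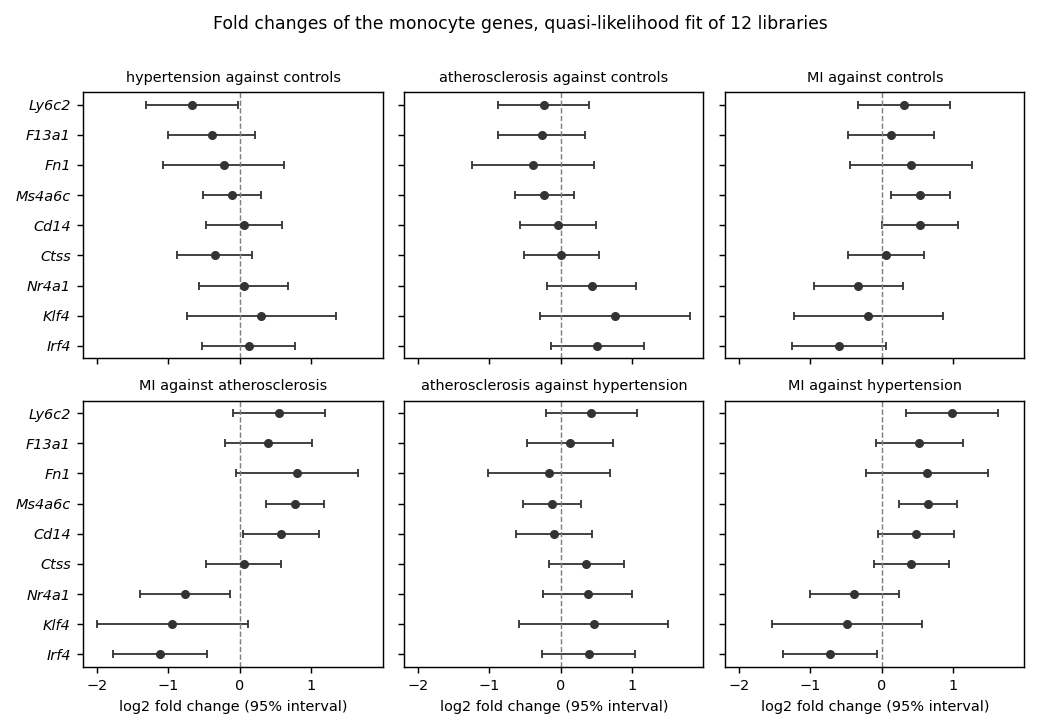
Log2 fold changes (horizontal axis) of the 9 genes in the 6 comparisons, with 95% intervals from the quasi-likelihood fit of all 12 libraries. The interval of Ms4a6c lies above 0 in each of the 3 comparisons of MI, from 0.13 to 0.95 against controls, while most other intervals include 0.

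Direct comparisons between disease groups came from the same fit and share libraries with those against controls. Between MI and atherosclerosis, the log2 fold changes of the 4 classical genes were above 0, from 0.40 to 0.80, and those of Nr4a1, Klf4 and Irf4 below 0. Ms4a6c differed by a log2 fold change of 0.77 (SE 0.19, unadjusted p 0.00133 and adjusted p 0.121 in edgeR, rank 175) and Irf4 by -1.12 (SE 0.31, unadjusted p 0.00286 and adjusted p 0.164 in edgeR), both without overlap. Nr4a1 at -0.76 and Cd14 at 0.57 had unadjusted p of 0.0208 and 0.0372 in edgeR with overlapping libraries. By the quasi-likelihood test 0 of the 9 passed the threshold, against 0.269% of all genes, and 4 had an unadjusted p under 0.05, against 12.7% of all genes. The likelihood-ratio test and DESeq2 each called 2, Ms4a6c (adjusted p 0.0318 and 0.0142) and Irf4 (0.0412 and 0.0312), against 1.71% and 1.88% of all genes. Without overlap 1 of the 9 was higher in MI (6.23% of all genes) and 1 lower (7.44%). Klf4, at -0.94, turned to 0.09 without atherosclerosis replicate 2, and Ctss, at 0.05, to -0.19 without MI replicate 2. The Fn1 difference of 0.80 was 0.02 without MI replicate 2. Without that library Ly6c2 went from 0.55 to 0.20, F13a1 from 0.40 to 0.08 and Cd14 from 0.57 to 0.26, and without both that library and atherosclerosis replicate 2 they were -0.06, -0.04 and 0.15. Ms4a6c stayed between 0.67 and 0.84 in the fits without 1 library. Irf4 was -0.50 without both libraries, and Nr4a1 was -0.34 without atherosclerosis replicate 4.

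Between MI and hypertension, Ly6c2 had its widest contrast, a log2 fold change of 0.98 (SE 0.30, 95% interval 0.33 to 1.62), with all MI libraries above all of hypertension. Ms4a6c differed by 0.65 (SE 0.19), also without overlap, and Irf4 by -0.73 (SE 0.30) and Nr4a1 by -0.39 (SE 0.29) with all MI libraries lower. In edgeR's quasi-likelihood test 0 of 9 passed the threshold, as did 0% of all genes, the lowest adjusted p being 0.529, and the likelihood-ratio test and DESeq2 called 0. An unadjusted p under 0.05 was found in edgeR for 3 of the 9, against 8.41% of all genes. Members without overlap were 2 higher (9.34% of all genes) and 2 lower (10.2%). Without MI replicate 2 the Ly6c2 value was 0.63, that of Irf4 was -0.48 and that of Fn1 went from 0.63 to -0.14.

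Between atherosclerosis and hypertension, the largest log2 fold changes were those of Klf4, 0.46 (SE 0.48), and Ly6c2, 0.43 (SE 0.30). Here 0 of 9 genes passed the threshold in edgeR, against 0.0625% of all genes, 0 had an unadjusted p under 0.05, against 5.94%, and 0 were free of overlap, against 10.9%. The likelihood-ratio test and DESeq2 called 0 as well. Ly6c2 was 0.28 without atherosclerosis replicate 4. Klf4 turned to -0.58 without atherosclerosis replicate 2, and Nr4a1 at 0.38 to -0.05 without atherosclerosis replicate 4.

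Other genes of the monocyte types give the members a wider frame. Of 12 further genes of classical monocytes, which include the chemokine receptor gene Ccr2 and the lysozyme gene Lyz2, 11 were lower and 1 higher in hypertension (median log2 fold change -0.48), and 6 of the 12 were lower without overlap (7.81% of all genes). In MI 10 were higher and 2 lower, with a median of 0.14. In atherosclerosis 10 were lower and 2 higher, with a median of -0.24. None of the 12 passed the threshold in any of these comparisons by edgeR's quasi-likelihood test. The sum was carried by Lyz2, Hp, Chil3 and Mgst1, at means of 4800, 2080, 1850 and 531 CPM, and Lyz2, Hp and Chil3 are also expressed by neutrophils. The proteoglycan gene Vcan, at 6.73, 16 and 6.9 CPM in controls and 81.7, 16.8 and 26.2 CPM in MI, had the largest log2 fold change of the list, 2.08 (SE 0.52), without passing the threshold.

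Among 12 further genes of nonclassical monocytes, 3 were lower in MI than in atherosclerosis at an adjusted p under 0.05 in edgeR, while 0.2% of all genes were called lower. Treml4, a receptor of patrolling monocytes and splenic macrophages, fell by 1.77 on the log2 scale (SE 0.24, adjusted p 0.00934 in edgeR). It had 61.1, 46.5 and 43.7 CPM in atherosclerosis, 9.94, 17.8 and 16.7 CPM in MI and 20, 23.4 and 29.8 CPM in controls. The libraries of atherosclerosis were thus above, and those of MI below, all controls. Ace, the angiotensin-converting enzyme, fell by 1.86 (SE 0.34, adjusted p 0.041 in edgeR), from 6.09, 4.99 and 8.66 CPM in atherosclerosis to 1.16, 1.85 and 2.43 CPM in MI. Eno3, the muscle-type enolase, fell by 1.02 (SE 0.18, adjusted p 0.041 in edgeR). Its mean levels were 22.5 CPM in atherosclerosis, 11.1 CPM in MI and 13 CPM in controls. When each of the 12 libraries was left out in turn, Treml4 kept its call in every fit (adjusted p up to 0.0457 in edgeR, without MI replicate 4), whereas Ace lost it in 10 and Eno3 in 11 of the 12 (adjusted p up to 0.143 and 0.146 in edgeR, without MI replicate 2). The most abundant genes of the list, Cebpb, Ceacam1, Spn and Itgal, had log2 fold changes between -0.38 and 0.34 in these comparisons and were not called. Against controls, 8 of the 12 were higher in atherosclerosis (median log2 fold change 0.28), 6 without overlap (5.06% of all genes), and 10 of 12 were lower in MI, 3 without overlap (4.59% of all genes), with a median of -0.16. None of the 12 passed the threshold against controls. All 14 macrophage markers were higher in atherosclerosis than in controls (median log2 fold change 0.74), and 13 were lower in MI than in atherosclerosis. Unlike the nonclassical genes, they were not mostly lower in MI than in controls, with 10 higher and 4 lower (median 0.04). C1qa, a complement subunit of resident macrophages, had means of 30.7 CPM in controls, 60.2 CPM in atherosclerosis and 31.5 CPM in MI. Its log2 fold change of 0.97 in atherosclerosis against controls had an adjusted p of 0.0342 in edgeR, a call lost in 10 of the 12 fits without 1 library (adjusted p up to 0.26, without control replicate 3). The 14 macrophage markers summed to 1300 to 1600 CPM in controls, 1830 to 2200 CPM in atherosclerosis and 1270 to 1700 CPM in MI. None of them was at 0 in any library, and their part in the Treml4, Ace and Eno3 differences was not tested.

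**Figure D3:**
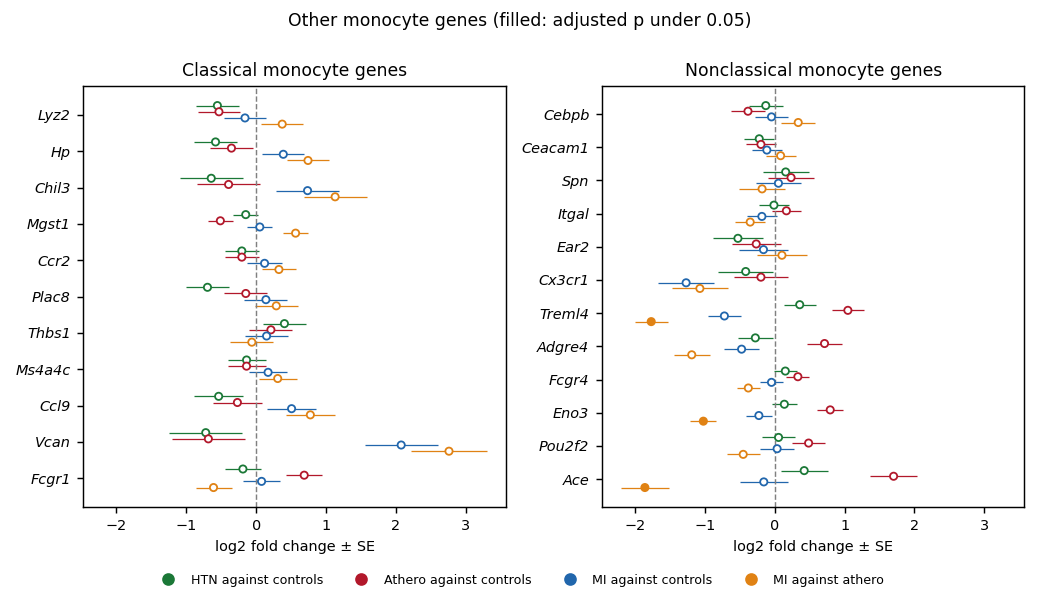
Log2 fold changes ± SE (horizontal axes) of further genes of classical monocytes (11 of the 12 are drawn) and of all 12 of nonclassical monocytes, ordered by level with the highest at the top, in 4 comparisons given by colour, filled where the adjusted p was under 0.05. The filled points are Treml4, Ace and Eno3 in MI against atherosclerosis.

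The levels of both lists were set against each other as the log2 ratio of the summed classical list to the summed nonclassical list, with the 9 genes in neither. The ratio weighs genes by abundance and is no count of cells: Cebpb alone made up 59.6% of the nonclassical sum in controls and 49.8% in atherosclerosis, and Lyz2, Hp and Chil3 made up 73.1 to 87.2% of the classical sum over the 12 libraries. In atherosclerosis the nonclassical sum was 1300 ± 198 CPM against 1450 ± 134 CPM in controls, although 8 of its 12 genes had log2 fold changes above 0. The ratio was 3.03 ± 0.0945 (SD, n = 3) in controls, 2.62 ± 0.0909 in hypertension, 2.69 ± 0.346 in atherosclerosis and 3.28 ± 0.326 in MI. All 3 hypertension libraries, at 2.73, 2.58 and 2.56, and all 3 of atherosclerosis, at 2.29, 2.92 and 2.86, lay below the controls, at 3.12, 2.93 and 3.03, while those of MI were at 3.65, 3.08 and 3.09. Without MI replicate 2 the MI difference from controls went from 0.25 to 0.06, and without atherosclerosis replicate 2 that of atherosclerosis went from -0.34 to -0.14. The exact two-sided permutation p was 0.1 for hypertension and for atherosclerosis, the smallest that 3 against 3 can give, and 0.3 for MI. Neutrophil markers moved with this ratio, at 37900 to 54900 CPM in hypertension and 59700 to 82200 CPM in controls (exact permutation p 0.1), and their part in it was not tested.

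Genes that work with the members were also followed. Of the 14 other MS4A genes that neighbour Ms4a6c on the list, 11 were tested and 7 were higher in MI, 2 of them without overlap (4.27% of all genes), and 4 lower, 1 of them without overlap (4.59% of all genes), with a median log2 fold change of 0.17 and 0 called. The summed level of the 14 was 1070 ± 35.5 CPM (SD, n = 3) in MI and 850 ± 122 CPM in controls (exact permutation p 0.1, the smallest possible). Ms4a3, a gene of granulocyte-monocyte progenitors, was the highest of them at a mean of 503 CPM, followed by Ms4a4c, Ms4a6b and the B cell gene Ms4a1. Of 10 Ly6 genes, 8 were tested and all 8 were lower in hypertension, 3 without overlap (7.81% of all genes), with a median of -0.49 and 0 called. Ly6e carried most of that sum, at 1020 ± 105 CPM in controls and 840 ± 95.7 CPM in hypertension, with Ly6d, Ly6g and Ly6a far below it.

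The partners of Cd14 in lipopolysaccharide sensing, 11 genes with the receptor Tlr4 and the more abundant Irak1, Myd88, Lbp and Tlr2 among them, had 2 higher and 9 lower in hypertension (median -0.23), 6 higher and 5 lower in atherosclerosis (median 0.01) and 5 higher and 6 lower in MI (median -0.02), with 0 called. Of 17 cathepsins, inhibitors and the cathepsin S substrate Cd74, 4 were higher and 13 lower in hypertension with 0 called. Their summed level was nevertheless higher there, at 10700 ± 491 CPM against 9120 ± 483 CPM in controls (exact permutation p 0.1). In atherosclerosis 7 were higher and 10 lower, and the sum was likewise higher, at 10200 ± 300 CPM (exact permutation p 0.1). The most abundant were Ctsb, at 3500 ± 352 CPM in hypertension against 2820 ± 306 CPM in controls, and Ctse, a cathepsin of red cell precursors among others, at 2890 ± 484 CPM against 1570 ± 240 CPM, followed by Cd74 and Cst3. Fibronectin receptors, transglutaminases and fibrinogens gave 9 tested genes of 14, of which 8 were higher in atherosclerosis (median 0.41) and 3 in MI (median -0.14), with 0 called. The most abundant were the integrin genes Itgb1, Itga4, Itgb3 and Itga2b, and Fga and Fgg had no count in any library.

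Of 15 other transcription factors of monocytes, 12 were higher in atherosclerosis (median 0.13) and 3 in MI (median -0.08), with 0 called. Spi1, which encodes PU.1, had log2 fold changes of -0.20, -0.27 and 0.17 in hypertension, atherosclerosis and MI, and Irf8 ones of -0.16, 0.13 and -0.20. Cebpb and Zeb2 were likewise not called. Of 18 immediate early genes, the class to which Nr4a1 belongs, 15 were higher in atherosclerosis (median 0.14), 4 in hypertension (median -0.20) and 5 in MI (median -0.10), with 0 called, the most abundant being Junb, Dusp1, Ier2 and Klf6. The 12 genes of all monocytes, of which Cybb, Fcer1g, Tyrobp and Cd68 were the most abundant, had 5, 8 and 6 higher in hypertension, atherosclerosis and MI, with 0 called.

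Over the 12 libraries the 9 genes formed a larger and a smaller set by correlation. The values describe log2 CPM in libraries that share groups and differ in cell content, and no test was made of them. Of 36 pairs, 20 had a positive Pearson's r, 12 an r above 0.5 and 9 an r below -0.5. Ly6c2 went with Ctss (r = 0.85, Spearman's rho 0.74), F13a1 with Cd14 (r = 0.80, rho 0.75) and with Ctss (r = 0.79, rho 0.66), and Klf4 with Irf4 (r = 0.69, rho 0.41). Opposed were Cd14 and Irf4 (r = -0.82, rho -0.52), Ly6c2 and Klf4 (r = -0.78, rho -0.82) and Ly6c2 and Irf4 (r = -0.76, rho -0.34). Over the 10 libraries other than atherosclerosis replicate 2 and MI replicate 2, r was 0.74 for Ly6c2 with Ctss, 0.58 for F13a1 with Cd14, and -0.77 for Ly6c2 with Klf4. By contrast, without both libraries it was 0.29 for Klf4 with Irf4, -0.48 for Cd14 with Irf4 and -0.32 for Ly6c2 with Irf4, so these pairs rested largely on both libraries. Within the set of Ly6c2, Ctss, F13a1, Cd14, Fn1 and Ms4a6c, pairs that were positive over 12 libraries also turned over 10, Ly6c2 with Cd14 from 0.53 to -0.16, Ly6c2 with Fn1 from 0.44 to -0.18 and Ms4a6c with Ctss from 0.28 to -0.083. Cd14 with Ctss went from 0.54 to 0.099 and Fn1 with Ctss from 0.46 to 0.084. Nr4a1 had no r above 0.36 to another member over 12 libraries and an r of -0.56 to Ms4a6c, but over 10 libraries its r was 0.54 with Ctss, 0.43 with F13a1 and 0.40 with Cd14.

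**Figure D4:**
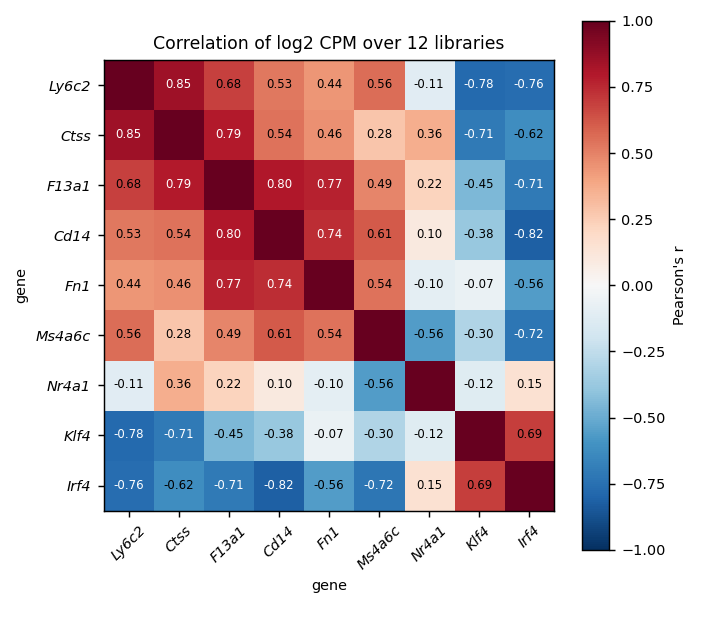
Pearson's r of log2 CPM over the 12 libraries for each pair of the 9 genes, from blue (negative) to red (positive). Ly6c2, Ctss, F13a1, Cd14, Fn1 and Ms4a6c form a block of positive values over all 12 libraries, of which Ly6c2 with Cd14 and with Fn1, and Ms4a6c with Ctss, are below 0 over 10 libraries, and Klf4 and Irf4 (r = 0.69 with each other) are negative to most of it.

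Marker sums of other marrow cells moved with several members, and their part in the members' differences was not tested. Ly6c2 followed the 12 classical genes (r = 0.91, rho 0.72, and 0.85 over 10 libraries) and, as closely, the 15 neutrophil markers (r = 0.90, rho 0.77, and 0.81 over 10 libraries). Those neutrophil markers summed to 48200 ± 9090 CPM in hypertension, where Ly6c2 was low, and 68700 ± 11900 CPM in controls. Ms4a6c followed the sum of the other MS4A genes, of which Ms4a3 was the most abundant (r = 0.90, rho 0.89, and 0.87 over 10 libraries). It followed neutrophil markers less closely (r = 0.68). Ms4a6c was opposed to conventional dendritic cell markers (r = -0.82, rho -0.76, and -0.77 over 10 libraries) and plasmacytoid ones (r = -0.72, rho -0.66, and -0.56). Irf4 followed B cell markers (r = 0.94, rho 0.79, and 0.73 over 10 libraries) and plasmacytoid dendritic cell markers (r = 0.84, rho 0.87, and 0.46 over 10 libraries). Its r was 0.78 with conventional dendritic cell markers (rho 0.48, and 0.60 over 10 libraries). With plasma cell markers it was only 0.10 (rho -0.12, and -0.63 over 10 libraries). In MI, where Irf4 was lowest, the 10 B cell markers summed to 214 to 469 CPM against 490 to 704 CPM in controls. The 9 plasmacytoid markers summed to 187 to 343 CPM against 378 to 406 CPM. For the 10 conventional dendritic cell markers the sums were 622 to 957 CPM and 987 to 1130 CPM. These sums were without overlap (exact permutation p 0.1, the smallest possible). All 7 plasma cell markers had log2 fold changes above 0 in MI, their sum at 959 to 2260 CPM against 940 to 1260 CPM. In all, 63 list sums were tested without adjustment, and 3 against 3 gives no overlap by chance in 10%. Of the B cell, dendritic cell and plasma cell markers, Lag3 alone was at 0 in some library. Nr4a1 followed immediate early genes (r = 0.60, rho 0.58, and 0.59 over 10 libraries) more than the nonclassical list (r = 0.34, rho 0.34, and 0.25 over 10 libraries). Its r was 0.56 with cathepsins and their inhibitors (rho 0.64, and 0.63 over 10 libraries) and 0.49 with plasmacytoid markers (rho 0.40, and 0.77 over 10 libraries). Nr4a1 was opposed to the other MS4A genes (r = -0.69, and -0.76 over 10 libraries). Klf4 was opposed to the classical list (r = -0.81, and -0.52 over 10 libraries). It was as much opposed to erythroid markers (r = -0.82, and -0.63 over 10 libraries) and neutrophil markers (r = -0.78, and -0.62). Its r was positive with the lipopolysaccharide receptor genes (0.89, and 0.73 over 10 libraries) and with B cell markers (0.71, and 0.41).

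**Figure D5:**
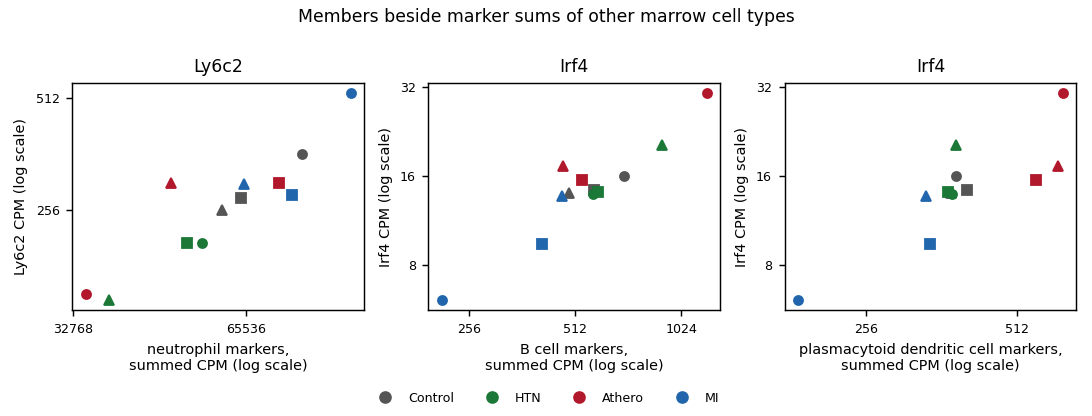
Levels of Ly6c2 and Irf4 (vertical axes, CPM, log scale) against summed CPM of neutrophil, B cell and plasmacytoid dendritic cell markers (horizontal axes, log scale) in the 12 libraries, coloured by group, with circles for replicate 2, squares for replicate 3 and triangles for replicate 4. Ly6c2 climbs with the neutrophil sum (r = 0.90) and Irf4 with both other sums (r = 0.94 and 0.84), and atherosclerosis replicate 2 and MI replicate 2 lie at opposite ends.

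The genes whose log2 CPM was most like each member's, among 13413 genes with a mean of at least 1 CPM, were mostly not monocyte markers. Ly6c2 was nearest to Srgn, the granule proteoglycan serglycin (r = 0.974 over 12 libraries), to 2610001J05Rik and to Tmsb4x. Ctss was nearest to Brpf1 (r = 0.972), Fbxl17 and Glg1, and F13a1 to Gusb, a lysosomal glucuronidase (r = 0.958), Xdh and Mfn2. For Ms4a6c the nearest were Cfap57 (r = 0.934), Fkbp1b and Gxylt1, for Cd14 Arrb2 (r = 0.891), Kmt5c and Fbxw2, and for Fn1 Rnf217 (r = 0.941), Ndst1 and Fkbp5. Nr4a1 was nearest to Akt2 (r = 0.929), Adar and Opa3, Klf4 to Neurl1b (r = 0.969), Dhx34 and Gm5915, and Irf4 to Whrn (r = 0.957) and Tarbp1. Spearman's rho was lower for several, at 0.664 for Fn1 with Rnf217, 0.657 for Cd14 with Fbxw2 and 0.692 for Irf4 with Tarbp1. For Ly6c2 with Srgn it was 0.972. No test was made of these likenesses.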

How the data were processed

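RNA-seq libraries of sorted marrow cells labelled as endothelial, from 12 mice, were analysed, 3 in each of 4 groups taken from the labels. The authors aligned single-end reads to GRCm38.p6 with STAR 2.7.3a and deposited its raw counts per Ensembl gene, without normalization. Because STAR counts only reads with a single place in the genome, genes with near-identical copies lose reads. All columns of samples were mapped. Total counts ran from 17007088 to 25136936, so that 3 counts, taken as the detection floor, correspond to 0.119 to 0.176 CPM, which covers counting error only. Genes were filtered with filterByExpr, scaled by TMM and fitted in edgeR 4.0.16 (R 4.3.3) with 1 coefficient per group (estimateDisp, glmQLFit, glmQLFTest, two-sided). Standard errors were obtained from each log2 fold change and its F statistic. CPM are TMM-normalized, and log2 CPM used a prior count of 2. Exon lengths are the union of exons in GENCODE M21. Summed lists were tested by exact two-sided permutation against controls, in 63 tests without adjustment. Alternatives were the likelihood-ratio test, which the study names, DESeq2 1.42.0, RLE factors, CPM without TMM, other filters, only the groups compared, a replicate block, immunoglobulin and hemoglobin genes left out, mean log2 CPM of a list, and each library left out in turn. Steps were tested on simulated counts. Members and gene lists were chosen with earlier results of these data known. Named genes were the members, list genes under the threshold, the 4 highest of a list, and for each member its 3 most alike genes, except that some genes are not reported here by name. Others were chosen after their values were seen, Vcan, Tlr4, Ccr2, Cdh5, Pecam1, Fga, Fgg and Lag3 among them.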

Additional observations from a re-analysis of the deposited data

How the results depend on the processing

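No called result changed direction under any alternative. The 9 genes kept a count of 0 called in 121 of 126 fits of the 6 comparisons, and every fit that left out 1 library gave 0. The exceptions were the likelihood-ratio test and DESeq2 with 2 called each between MI and atherosclerosis (Ms4a6c and Irf4), and no filter beyond 1 count in total, which called 5 there (Fn1, Ms4a6c, Nr4a1, Klf4 and Irf4), 1 in atherosclerosis against controls (Klf4) and 1 in MI against hypertension (Ly6c2). Of the 36003 genes tested under that last setting, 790, 432 and 422 were called in those comparisons. Counts over all genes depended more on the test. Against controls, no filter called 170 of those 36003 genes in hypertension, 432 in atherosclerosis and 130 in MI, and between groups 790 (MI and atherosclerosis), 235 (atherosclerosis and hypertension) and 422 (MI and hypertension). The likelihood-ratio test called 81 in atherosclerosis, 1 in MI, 274, 70 and 2 in the same order, and DESeq2 81, 1, 301, 76 and 22. With only the 2 groups compared, 4 were called in atherosclerosis, 1 in MI and 3 between MI and atherosclerosis. Leaving out immunoglobulin and hemoglobin genes gave 66 there. Leaving out 1 library gave 2 to 34 genes in atherosclerosis, 0 to 1 in MI, 8 to 93 between MI and atherosclerosis and 3 to 36 between atherosclerosis and hypertension. Leaving out both libraries that stood apart, chosen after seeing the data, gave 55 in atherosclerosis and 124 between atherosclerosis and hypertension. The cause was not tested.

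The labels do not say whether same-numbered mice were handled together, and deviations from means of 3 libraries cannot decide it. Of 18 same-numbered pairs, 5 had deviations correlating above 0.1 (r from -0.28 to 0.3), and 4 of 12 libraries correlated best with their own number. With the replicate block, 0 of the 9 genes were called in every comparison, and over all genes 7 were called in atherosclerosis against controls, 22 between MI and atherosclerosis and 7 between atherosclerosis and hypertension.

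With the mean log2 CPM of each list in place of its sum, the classical to nonclassical difference from controls was -0.59 in atherosclerosis and 0.56 in MI, farther from 0 than the sums gave. With Cebpb left out of the nonclassical list, chosen after seeing the data, it was -0.42 in hypertension, -0.64 in atherosclerosis and 0.35 in MI. With only the 2 groups compared, Treml4 lost its call between MI and atherosclerosis (adjusted p 0.108 in edgeR), as did Ace and Eno3 (0.249 and 0.377). With 3 mice per group, a difference of the size seen in Ly6c2 had an interval wide enough to reach almost 0. Every member had at least 110 counts in every library.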
